A study of Homo sapiens with 19 samples.

Results

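The comparison set 4 strongly lung-metastatic lines (4142, 4173, 4175 and 4180) against 3 weakly lung-metastatic lines (SCP21, SCP6 and SCP26), chosen by the group named in each array's title, which makes 7 of the 19 arrays of the series. All 7 lines descend from MDA-MB-231, an established human breast cancer line that lacks the oestrogen receptor, and each was measured on 1 array. The line 4175 was described as the original subline after a short culture. The labels give no other allele, agent or age for any line, and do not say whether a line grew from 1 clone. Every line was kept in the same medium with serum and the selective drugs it needed, and RNA was taken before the cells were confluent. The series' title asks about ploidy and metastasis, and the comparison described here asks which transcripts separate lines of strong from lines of weak lung activity. With 1 array a line, a p-value compares the spread between lines and holds no measure of repeat arrays of a line.

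To colonise the lung, a circulating tumour cell has to leave the capillaries, survive in the lung tissue and resume growth there. Secreted proteases and matricellular proteins remodel the matrix around tumour cells, growth factors and prostaglandins act on nearby vessels, and regulators such as the ID proteins hold cells in a proliferative state. MHC class I and class II molecules present peptides to T cells, while complement components, acute phase proteins and cytokines belong to the inflammatory response. Sublines of MDA-MB-231 have long served to find genes of lung colonisation, so a list of such genes was itself drawn from relatives of these lines.

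The array held 22283 probe sets, and several short probes make up each. The deposited values were linear ratios, and differences are given on the scale of log2 of these ratios. The array signal behind each ratio could be read back from the values, and signals, in arbitrary units, are given in the order SCP21, SCP6 and SCP26 for the weak lines and 4142, 4173, 4175 and 4180 for the strong lines. Genes whose signal exceeded the 40th percentile of the array in 3 or more lines were tested, 8411 in all. Adjusted p-values come from limma with Benjamini-Hochberg adjustment over all of these, and a gene passed below 0.05. Where every line of the dimmer group lay at or below that percentile, the fold is also given as a lower bound, the brighter group's mean over the percentile level.

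The weak line SCP6 stood apart in array quality. Its signal at the 10th percentile was 5.2, against 11.6 to 14.6 on the other 6 arrays. Its median signal was 124.0 against 143.3 to 163.0, and 20.7% of its ratios were below 0.5 against 5.22% to 7.54%. The mean log2 signal of the spike-in controls was 9.89 for SCP6 and 10.1 to 10.7 for the others. Ratios of 3' to 5' probe sets, a measure of RNA integrity, ran from 0.85 to 1.18 for GAPDH and from 0.99 to 1.32 for ACTB. The count over all genes and those of several lists are also given without SCP6. The mesenchymal filament VIM, bright in MDA-MB-231, stood at 21193, 12135 and 12382 in the weak and 22067, 28405, 26569 and 22219 in the strong lines. The oestrogen receptor ESR1 stayed between 111.1 and 187.4 in all 7 lines, close to the array medians, and another of its probe sets differed with the opposite sign. Of 11 identity markers tested, 0 were higher and 1 was lower (9.09%, against 5.08% of all genes). The lower marker was the luminal factor GATA3 at -0.92 (SE 0.21, adjusted p = 0.0444). Its call was lost without SCP21, SCP26, 4142, 4173, 4175 or 4180 (adjusted p = 0.0766 to 0.145).

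Of the 8411 genes, 427 passed (5.08%), with 169 higher (2.01%) and 258 lower (3.07%) in the strong lines. For each of the 427, no strong line overlapped a weak line, and for 355 the groups differed by 2-fold or more. Over all genes tested the groups did not overlap for 1766 (21%), and the median log2 difference was -0.02. An unadjusted p under 0.05 in limma was reached by 1828 of the 8411 genes. The counts of list members given below stand beside these shares of all genes. The count fell to 235 without 4142, 155 without 4173, 151 without 4175 and 211 without 4180, while leaving out SCP21, SCP6 or SCP26 gave 388, 434 and 518. Without SCP6 the split turned to 239 higher and 195 lower. Because the groups did not overlap for any of the 427, leaving out a line could not change their direction.

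**Figure D1:**
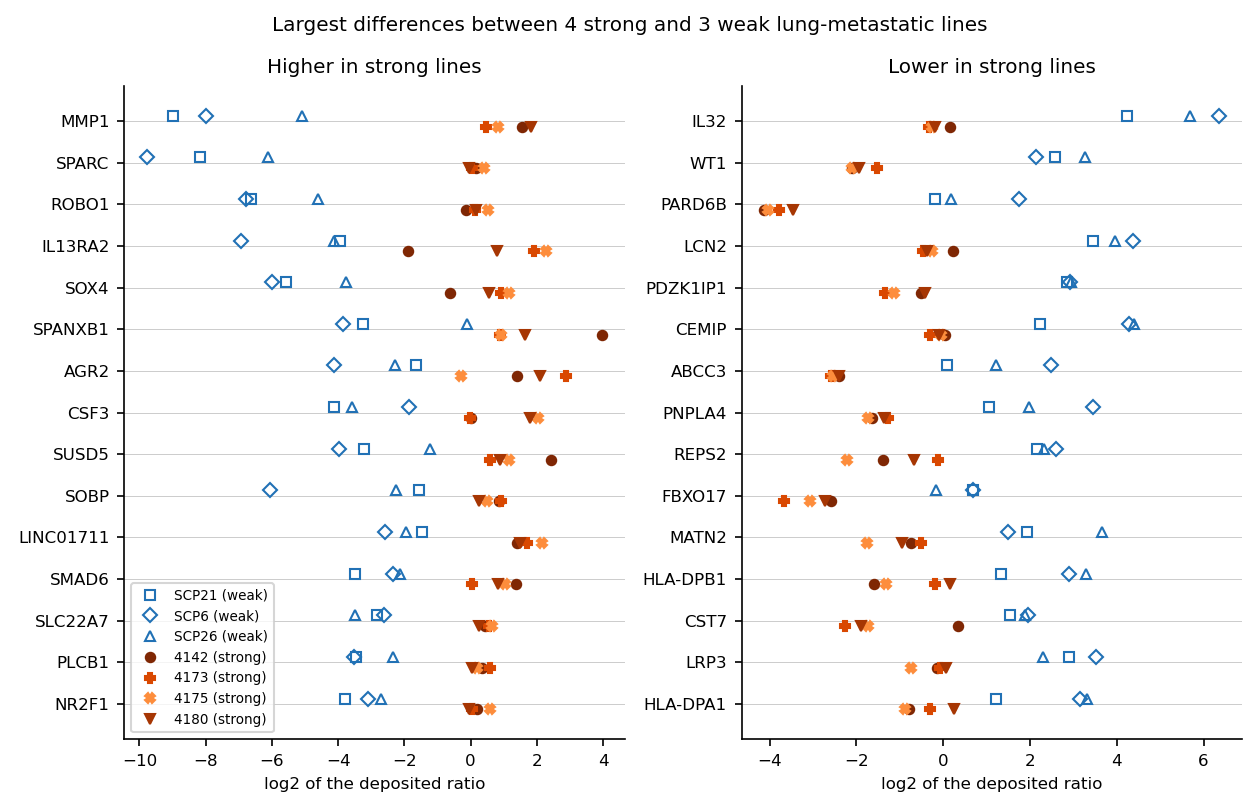
Log2 of the deposited ratio (x axis) in each line for the 15 genes with the largest positive (left) and the 15 with the largest negative (right) mean difference among those that passed; open blue symbols are the 3 weak lines and filled symbols the 4 strong lines. In each row the symbols of the groups do not overlap, and MMP1 (difference 8.53) and IL32 (-5.58) mark the ends.

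Among proteases and matrix proteins the collagenase MMP1 and the collagen-binding matricellular protein SPARC went from near the floor of the array to among its bright transcripts. MMP1 had signals of 2.9, 4.9 and 47.7 in the weak lines and of 4384, 2078, 2543 and 5775 in the strong lines. All 3 weak lines were at or below the 40th percentile and all 4 strong lines were far above it. The log2 difference was 8.53 (SE 0.81, adjusted p = 0.00151), at least 37.9-fold higher. SPARC showed 10.5, 2.9 and 47.5 in the weak and 3383, 3159.6, 3864 and 3188 in the strong lines, with a difference of 8.16 (SE 0.69, adjusted p = 0.000986), at least 37.8-fold higher. The strong lines lay close together for SPARC, and SCP26 was the highest of the weak lines for both genes.

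Of 31 matricellular and matrix proteins tested, 8 were higher and 2 lower, with a median log2 difference of 0.47 against -0.02 over all genes. The 8 were SPARC, the laminin chain LAMA4, tenascin TNC, the collagen VI chains COL6A1 and COL6A3, the growth factor modulator CCN2 and the collagens COL13A1 and COL1A1. LAMA4 had signals of 51.1, 12.1 and 40.5 in the weak and 225.4, 265.8, 295.3 and 339.2 in the strong lines, a difference of 3.19 (SE 0.39, adjusted p = 0.00458), at least 3.11-fold higher, and another, dimmer probe set of LAMA4 gave 0.10 (adjusted p = 0.851). COL6A1 measured 721.4, 1068 and 2129 in the weak and 4468, 6990.0, 9424 and 5924 in the strong lines (2.39, SE 0.37, adjusted p = 0.0115), so that SCP26 was the nearest weak line. TNC gave 37.7, 39.5 and 166.8 against 382.1, 358.2, 687.0 and 373.8, a difference of 2.72 (SE 0.48, adjusted p = 0.0175), and lost its call without 4175 (adjusted p = 0.0527). The 2 lower genes were the matrilin MATN2 (469.4, 294.9 and 1723 against 74.6, 88.3, 35.8 and 70.6, difference -3.34, SE 0.51, adjusted p = 0.0105, lower by at least 6.78-fold) and the collagen chain COL8A1 (-1.38, SE 0.20, adjusted p = 0.00876, lower by at least 1.22-fold). CCN2 lost its call without 4142, 4173 or 4175 (adjusted p = 0.0519 to 0.0642) and COL13A1 without SCP21, SCP26, 4142, 4173 or 4175 (adjusted p = 0.0638 to 0.0937). Without SCP6 the list had 10 higher and 2 lower, without 4142 or 4173 it had 5 and 2, and without 4175 or with no filter on low values it had 4 and 2.

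In the plasminogen and serpin system 3 of 14 genes were higher and 1 lower. SERPINE2, an inhibitor of thrombin and plasminogen activators, had 251.7, 471.7 and 356.4 in the weak and 2182, 2254, 2757 and 2278 in the strong lines, a difference of 2.69 (SE 0.28, adjusted p = 0.00239). The lowest strong line lay well above the highest weak line for this gene. SERPINF1, which encodes the anti-angiogenic factor PEDF, differed by 2.86 (SE 0.35, adjusted p = 0.00423), at least 2.28-fold higher. The urokinase receptor PLAUR rose by a smaller step, 1.01 (SE 0.22, adjusted p = 0.0384), and TFPI2, a Kunitz-type protease inhibitor, fell (-1.56, SE 0.33, adjusted p = 0.032). Further probe sets of PLAUR gave 1.03 (adjusted p = 0.0337) and 0.37 (adjusted p = 0.457), and another of TFPI2 gave -1.46 (adjusted p = 0.135). The PLAUR call was lost without SCP21, SCP26, 4142, 4173, 4175 or 4180 (adjusted p = 0.0652 to 0.122) and the TFPI2 call without SCP6, SCP26, 4142, 4173 or 4175 (adjusted p = 0.0568 to 0.0901). Without SCP6 the list had 4 higher and 0 lower, without 4142, 4173 or 4175 it had 2 and 0, and without SCP21 or 4180 it had 2 and 1. Of 17 metalloproteases and their inhibitors, MMP1 alone passed (5.88%, against 5.08% of all genes). The list had 2 higher without SCP6 or SCP26, and 2 higher and 1 lower without SCP21. For the gelatinase MMP2 the difference was 2.26 (SE 0.60, adjusted p = 0.0716) with signals of 17.3, 43.3 and 121.4 against 115.5, 218.0, 257.7 and 395.9.

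Receptors, cytokines and growth factors were among the other genes that rose. The interleukin 13 receptor IL13RA2, a high-affinity chain that binds the cytokine, had signals of 57.2, 6.1 and 54.9 in the weak and 236.3, 3361, 4138 and 1664 in the strong lines. The groups did not overlap, but 4142 lay far below the other strong lines. The difference was 5.77 (SE 1.06, adjusted p = 0.0193), at least 17.1-fold higher, and the call was lost without 4173, 4175 or 4180 (adjusted p = 0.0591 to 0.0642). The guidance receptor ROBO1, which binds SLIT proteins, measured 1.6, 1.2 and 7.2 against 142.8, 175.9, 220.6 and 193.9, a difference of 6.17 (SE 0.49, adjusted p = 0.000783), at least 2.02-fold higher. ROBO1 was the 1 gene of 16 axon guidance genes that passed (6.25%, against 5.08% of all genes). Of the 16, 7 were higher without overlap between groups, a pattern shown by 8.75% of all genes. These 7 included its ligand SLIT2 at 1.23 (SE 0.34, adjusted p = 0.0797) and the semaphorin SEMA3A at 2.49 (SE 0.69, adjusted p = 0.0788), which did not pass. The count of 1 was 6 under quantile normalisation or in the fit of 14 arrays, 4 with a variance trend, 3 under the trimmed mean, with an offset of 16 or without SCP6, and 2 without 4180.

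CSF3, the granulocyte colony-stimulating factor, had 11.6, 46.1 and 18.4 in the weak lines and 203.0, 200.7, 789.6 and 756.7 in the strong lines. Within the strong group 4175 and 4180 were the higher pair. The difference was 4.14 (SE 0.68, adjusted p = 0.0124), at least 4.41-fold higher. The epidermal growth factor family ligand EREG measured 139.7, 115.2 and 129.7 against 796.3, 782.5, 1148 and 1211, with a difference of 2.85 (SE 0.22, adjusted p = 0.000783), and was the 1 gene of 8 in its family that passed. PTGS2, the inducible cyclooxygenase of prostaglandin synthesis, stood at 33.1, 13 and 11.5 against 175.7, 118.9, 172.3 and 215.6 (3.23, SE 0.38, adjusted p = 0.004), at least 1.86-fold higher. PLA2G4A, the phospholipase that releases its substrate, had a large difference that did not pass (4.54, SE 1.24, adjusted p = 0.0761), with signals of 10.5, 0.3 and 32.1 against 104.5, 91.9, 131.2 and 131.0. Of 8 prostaglandin genes tested 1 was higher, 3 without SCP6 and 2 without SCP26, under quantile normalisation, with an offset or in the fit of 14 arrays. The vascular factors ANGPTL4 (2.29, SE 0.45, adjusted p = 0.0255, higher by at least 2.48-fold) and PDGFA (1.66, SE 0.24, adjusted p = 0.00876) were the 2 of 18 angiogenic genes that passed. ANGPTL4 lost its call without 4142, 4173 or 4175 (adjusted p = 0.0576 to 0.078), which left 1 of the list.

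Transcriptional regulators changed in both directions. The HMG-box factor SOX4 measured 8.9, 5.5 and 33.9 in the weak and 275.7, 813.8, 917.1 and 678.6 in the strong lines, and 4142 was the lowest of the latter. Its difference was 5.63 (SE 0.58, adjusted p = 0.00229), at least 6.82-fold higher, and another probe set gave 3.29 (adjusted p = 0.0796). ID1, an inhibitor of basic helix-loop-helix factors, had 787.6, 645.5 and 714.5 against 4938, 3075, 2197 and 2269, a difference of 1.98 (SE 0.30, adjusted p = 0.0105), while its relative ID3 did not pass (2.80, SE 0.89, adjusted p = 0.113) and its strong lines ranged from 94.8 to 683.5. The nuclear receptor NR2F1 (3.39, SE 0.28, adjusted p = 0.000928, higher by at least 2.94-fold) and the inhibitory SMAD6 (3.47, SE 0.40, adjusted p = 0.00385, higher by at least 1.12-fold) also rose. The zinc-finger factor WT1 fell from 145.2, 90.6 and 260.2 to 5.7, 8.6, 5.5 and 6.9, a difference of -4.58 (SE 0.29, adjusted p = 0.000538), at least 1.65-fold lower, and ETS2 fell as well (-1.56, SE 0.20, adjusted p = 0.00551). With a variance trend on signal, WT1 and SMAD6 no longer passed. Of 23 ID, SOX and other developmental regulators tested, 3 were higher and 2 lower, with a median of 0.70. The list had 2 and 1 without SCP21, SCP26, 4173, 4175 or 4180 or with no filter, and 6 and 2 in the fit of 14 arrays.

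Of 19 tested genes in a list of lung metastasis genes, 13 were higher and 0 lower, with a median log2 difference of 2.72. This list was drawn by earlier work from sublines of the same parental line and is not independent evidence of its direction. Besides those above, the 13 held the actin-bundling protein FSCN1 (2.70, SE 0.38, adjusted p = 0.00752), the mannosidase MAN1A1 (3.11, SE 0.55, adjusted p = 0.0176, higher by at least 2.07-fold), the TGF-beta binding protein LTBP1 (1.77, SE 0.32, adjusted p = 0.0185) and ADIRF (3.23, SE 0.64, adjusted p = 0.0266). FSCN1 had signals of 69.4, 187.9 and 134.1 in the weak and 601.5, 975.9, 941.4 and 802.7 in the strong lines, which did not overlap. The calls were lost without 4142, 4173 or 4175 (adjusted p = 0.0525 to 0.0591) for MAN1A1, without 4173 or 4175 (adjusted p = 0.0529 to 0.0609) for LTBP1 and without SCP21, SCP26, 4173, 4175 or 4180 (adjusted p = 0.0537 to 0.0802) for ADIRF. Other probe sets of MAN1A1 and LTBP1 gave 1.70 (adjusted p = 0.163) and 2.49 (adjusted p = 0.0803). The adhesion molecule VCAM1 did not pass (2.10, SE 0.58, adjusted p = 0.0796), and its signals were 88.8, 46.5 and 87.4 against 109.2, 238.4, 560.9 and 717.4, with 4142 close to the weak lines. The chemokine CXCL1 overlapped between groups, at 206.0, 571.5 and 1948 against 406.1, 697.2, 682.0 and 1582. The phospholipase PLAAT4 (-2.12, SE 0.64, adjusted p = 0.0985) and the scaffold NEDD9 (-1.80, SE 0.53, adjusted p = 0.092) had negative differences that did not pass, and in both SCP26 was the highest of all lines. The list had 8 higher without 4173, 7 without 4175 and 7 with no filter on low values. Leaving out SCP21 or SCP6 added 1 lower gene, beside 12 and 13 higher.

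**Figure D2:**
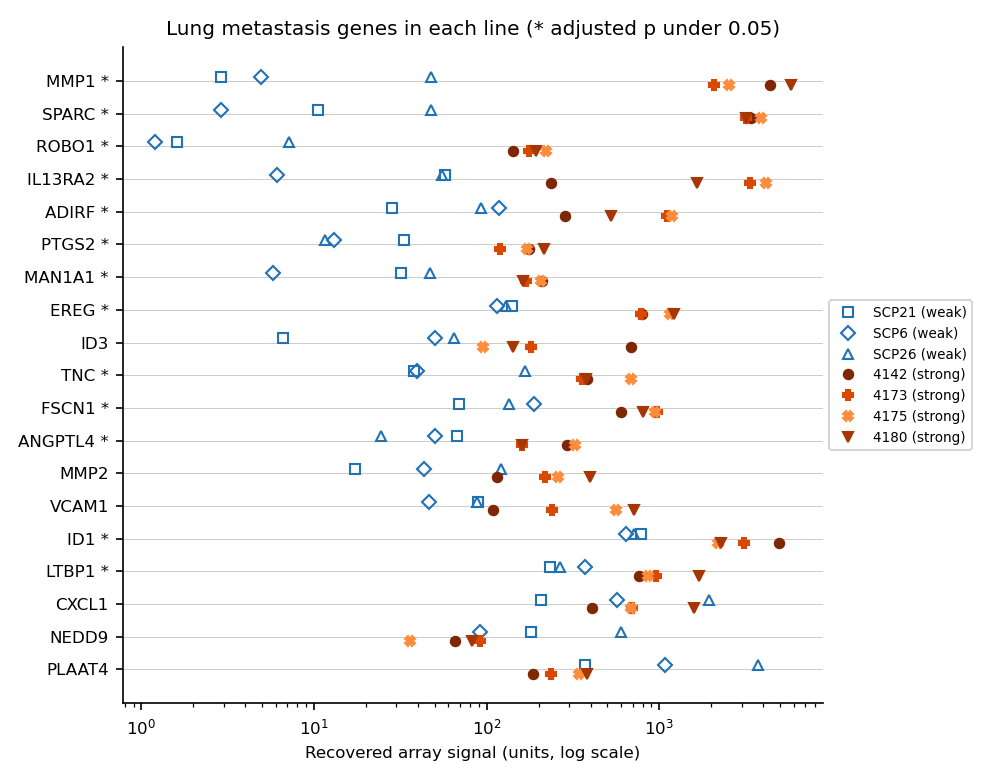
Recovered array signal (x axis, log scale) in each of the 7 lines for the 19 tested lung metastasis genes, ordered by their difference; open blue symbols are weak lines, filled symbols strong lines, and an asterisk marks the 13 genes that passed. The upper rows show separated groups, and CXCL1 shows overlapping ones.

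Genes of inflammation, complement and antigen presentation were among those that fell. Promoter sequence is shown for 6 of them, chosen among list members that fell: they are the 250 bases before the annotated start in the RefSeq table (build GRCh38.p14), read 5' to 3' along the gene's own strand. In the MHC class II promoters capitals mark CCAAT on either strand, the core of the Y box of these promoters, and in the last 2 they mark GGG, any 4 bases and TCC on either strand, a loose form of the site bound by NF-kB, where neighbouring matches overlap.
HLA-DPB1, chr6:33075740-33075989, plus strand: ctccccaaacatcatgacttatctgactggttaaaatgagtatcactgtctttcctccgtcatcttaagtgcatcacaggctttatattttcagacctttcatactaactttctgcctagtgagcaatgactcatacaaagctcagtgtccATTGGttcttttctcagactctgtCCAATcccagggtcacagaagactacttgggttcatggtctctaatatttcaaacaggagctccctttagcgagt
HLA-DRB1, chr6:32589849-32590098, minus strand: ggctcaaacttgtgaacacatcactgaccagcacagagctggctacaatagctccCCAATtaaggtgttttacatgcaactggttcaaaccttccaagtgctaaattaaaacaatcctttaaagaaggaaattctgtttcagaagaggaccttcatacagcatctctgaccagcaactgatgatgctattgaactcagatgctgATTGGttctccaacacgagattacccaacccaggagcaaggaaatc
HLA-DMA, chr6:32953098-32953347, minus strand: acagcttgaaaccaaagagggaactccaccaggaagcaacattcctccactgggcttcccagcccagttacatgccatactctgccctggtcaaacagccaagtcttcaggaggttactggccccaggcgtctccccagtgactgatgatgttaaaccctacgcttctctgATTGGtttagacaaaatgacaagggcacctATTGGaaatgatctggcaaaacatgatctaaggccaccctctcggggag
CD74, chr5:150412911-150413160, minus strand: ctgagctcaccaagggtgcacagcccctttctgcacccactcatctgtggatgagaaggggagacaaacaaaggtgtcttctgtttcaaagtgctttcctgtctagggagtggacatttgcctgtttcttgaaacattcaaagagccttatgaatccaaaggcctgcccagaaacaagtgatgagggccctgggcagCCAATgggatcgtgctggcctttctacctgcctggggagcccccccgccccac
IL32, chr16:3065153-3065402, plus strand: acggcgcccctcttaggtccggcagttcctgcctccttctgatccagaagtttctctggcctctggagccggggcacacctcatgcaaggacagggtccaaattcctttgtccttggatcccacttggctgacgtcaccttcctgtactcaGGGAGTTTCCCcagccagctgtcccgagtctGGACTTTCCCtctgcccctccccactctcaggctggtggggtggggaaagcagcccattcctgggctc
LCN2, chr9:128149203-128149452, plus strand: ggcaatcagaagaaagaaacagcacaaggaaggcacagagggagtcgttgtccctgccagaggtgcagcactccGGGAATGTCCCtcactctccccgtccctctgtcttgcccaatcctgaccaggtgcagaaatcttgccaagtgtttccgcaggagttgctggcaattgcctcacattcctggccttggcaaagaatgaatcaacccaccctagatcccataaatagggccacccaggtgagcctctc

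The table held promoters for 6 of the 7 MHC class II list genes that fell, and CTSS had no entry. CCAAT was present in 5 of the 6, all but HLA-DPA1, and in 33.0% of the 27305 promoters of the same length. The run of GGG, any 4 bases and TCC was present in 3 of 6 promoters of the inflammatory and complement genes that fell (IL32, LCN2 and CFB) and in 19.4% of all promoters, and the entries of C2, C4BPB and TNFAIP2 held no match in this window. CSF1 and RELB had no entry. A match is a run of letters, and no binding was measured here.

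Of 11 MHC class II list genes tested, 7 were lower and 0 higher, with a median of -1.50. HLA-DPB1, a chain of the DP molecule, had signals of 452.4, 1128 and 1943 in the weak and 59.9, 161.5, 70.3 and 222.7 in the strong lines, a difference of -3.23 (SE 0.56, adjusted p = 0.0169). HLA-DPA1, its partner chain, measured 921.0, 2942 and 4326 against 228.4, 323.6, 207.2 and 515.9 (-2.99, SE 0.51, adjusted p = 0.0152). The HLA-DPA1 call was lost without 4175 (adjusted p = 0.0527), and other probe sets gave -2.91 (adjusted p = 0.054) and -2.12 (adjusted p = 0.0349). In both genes SCP21 was the lowest weak line and 4180 the highest strong line, without overlap. The other 5 fell by less. The cysteine protease CTSS, which trims the invariant chain, fell by 2.50 (SE 0.45, adjusted p = 0.0185), HLA-DRB1 by 2.09, the peptide loading subunits HLA-DMA by 1.65 and HLA-DMB by 1.45, and the invariant chain CD74 by 1.40. The call of HLA-DPB1 was lost without 4175 (adjusted p = 0.055), of CTSS without SCP26, 4142, 4173 or 4175 (adjusted p = 0.0502 to 0.0642), of HLA-DRB1 without SCP6, SCP26, 4142, 4173, 4175 or 4180 (adjusted p = 0.051 to 0.107), of HLA-DMA without 4142, 4173 or 4175 (adjusted p = 0.055 to 0.066), of HLA-DMB without SCP6, SCP26, 4142, 4173, 4175 or 4180 (adjusted p = 0.087 to 0.127) and of CD74 without SCP6, SCP26, 4142, 4173 or 4175 (adjusted p = 0.0551 to 0.0918). HLA-DRA overlapped, at 682.6, 3301 and 2680.3 against 421.6, 895.3, 523.8 and 1048, and did not pass (-1.50, SE 0.56, adjusted p = 0.172). The master regulator CIITA stood at 0.36 (SE 0.29, adjusted p = 0.508), and HLA-DQB1 and HLA-DOA did not pass either. The count of 7 was 0 without 4175, 2 without 4142 or 4173, 3 without SCP26, 4 without SCP6, 5 without 4180, 8 without SCP21 and 0 with no filter on low values. At an unadjusted p under 0.05 in limma 7 of 11 were lower without 4175 and 8 of 12 with no filter. Over all genes 1350 of 8411 and 1934 of 11963 had such a p in these fits, in either direction. Some HLA genes resemble one another in sequence, so a probe set may take up RNA of a relative.

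All 13 MHC class I and immunoproteasome genes tested had a negative difference, with a median of -0.90, and 2 passed. HLA-B fell from 15309, 15987 and 18219.6 to 4933, 7609, 8093 and 8921 (-1.25, SE 0.23, adjusted p = 0.0195) and HLA-C from 16465, 13267 and 17999 to 5982, 7967, 8909 and 9558 (-1.05, SE 0.20, adjusted p = 0.0225). The groups did not overlap for 10 of the 13, all lower in the strong lines, where 12.2% of all genes had that pattern. These included the peptide transporter TAP1 (-1.12, SE 0.28, adjusted p = 0.0581) and the proteasome subunit PSMB9 (-1.07, SE 0.26, adjusted p = 0.0545), which did not pass. The light chain B2M stood at -0.23 (SE 0.16, adjusted p = 0.439). Of the 13, 5 passed without SCP21, 1 without 4180, and 0 without 4173 or 4175 or with no filter, with HLA-B lost without 4173 or 4175 (adjusted p = 0.0522 to 0.0649) and HLA-C without SCP21, 4173, 4175 or 4180 (adjusted p = 0.0535 to 0.0802). In these last 3 fits 8, 10 and 9 were lower at an unadjusted p under 0.05 in limma. Over all genes 1382, 1350 and 1934 had such a p in these fits, in either direction.

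In the list of complement and acute phase proteins 4 of 13 genes were lower and 0 higher, with a median of -1.39. LCN2, a siderophore-binding protein of the acute phase, fell from 1244, 2001 and 1967 to 132.4, 83.2, 92.8 and 96.3, a difference of -4.16 (SE 0.27, adjusted p = 0.000538). Every strong line was below every weak line by a wide margin. The complement factor CFB went from 415.1, 1369 and 1119 to 117.4, 125.7, 132.1 and 209.8 (-2.66, SE 0.42, adjusted p = 0.0119), C2 fell (-1.39, SE 0.23, adjusted p = 0.0142), and the C4b-binding protein chain C4BPB fell from 532.6, 534.3 and 1090.2 to 229.3, 50.1, 96.8 and 118.5 (-2.72, SE 0.47, adjusted p = 0.0155). The central component C3 had a larger difference that did not pass, -3.80 (SE 0.98, adjusted p = 0.0638), and its strong lines ran from 9.8 to 185.0. Without 4175 the list had 2 lower, and the calls of C2 and C4BPB were each lost (adjusted p = 0.0527). With a stricter filter 1 of 6 was lower, and with a variance trend or in the fit of 14 arrays 6 of 13.

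In the list of inflammatory cytokines, chemokines and related genes 4 of 24 were lower and 1 higher, with a median of -0.56. The cytokine IL32 fell furthest, from 231.3, 846.5 and 695.2 to 13.7, 9.9, 10 and 11.8, with all 4 strong lines under the 40th percentile. Its difference was -5.58 (SE 0.44, adjusted p = 0.000783), at least 5.63-fold lower. TNFAIP2 fell from 2052, 3749.6 and 3131 to 630.7, 1048, 862.3 and 998.1 (-1.80, SE 0.29, adjusted p = 0.0124), as did the macrophage growth factor CSF1 (-1.57, SE 0.31, adjusted p = 0.0239) and the NF-kB subunit RELB (-1.18, SE 0.26, adjusted p = 0.0404), and CSF3 was the gene that rose. The adhesion molecule ICAM1 fell as well (-1.63, SE 0.38, adjusted p = 0.0473), with its call lost without SCP6, SCP26, 4142, 4173, 4175 or 4180 (adjusted p = 0.0518 to 0.119), and CSF1 lost its call without 4142, 4173, 4175 or 4180 (adjusted p = 0.063 to 0.0821). RELB lost its call without SCP6, SCP26, 4142, 4173, 4175 or 4180 (adjusted p = 0.0709 to 0.101). Other probe sets of TNFAIP2 and CSF1 gave -1.57 (adjusted p = 0.124) and -1.15 (adjusted p = 0.195). The cytokine list had 2 lower without 4142, 4173, 4175 or 4180 or with no filter, 3 without SCP6 or SCP26 and 6 without SCP21. Of 27 interferon-stimulated genes 1 was higher, the factor IRF7 (1.79, SE 0.32, adjusted p = 0.0182), and 1 lower, IFI27 (-2.30, SE 0.48, adjusted p = 0.0323). They made 7.41% of the list, against 5.08% of all genes, and the list median was -0.12. IRF7 lost its call without 4173 (adjusted p = 0.0624) and IFI27 without SCP6, SCP26, 4142, 4173 or 4175 (adjusted p = 0.0582 to 0.0933).

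**Figure D3:**
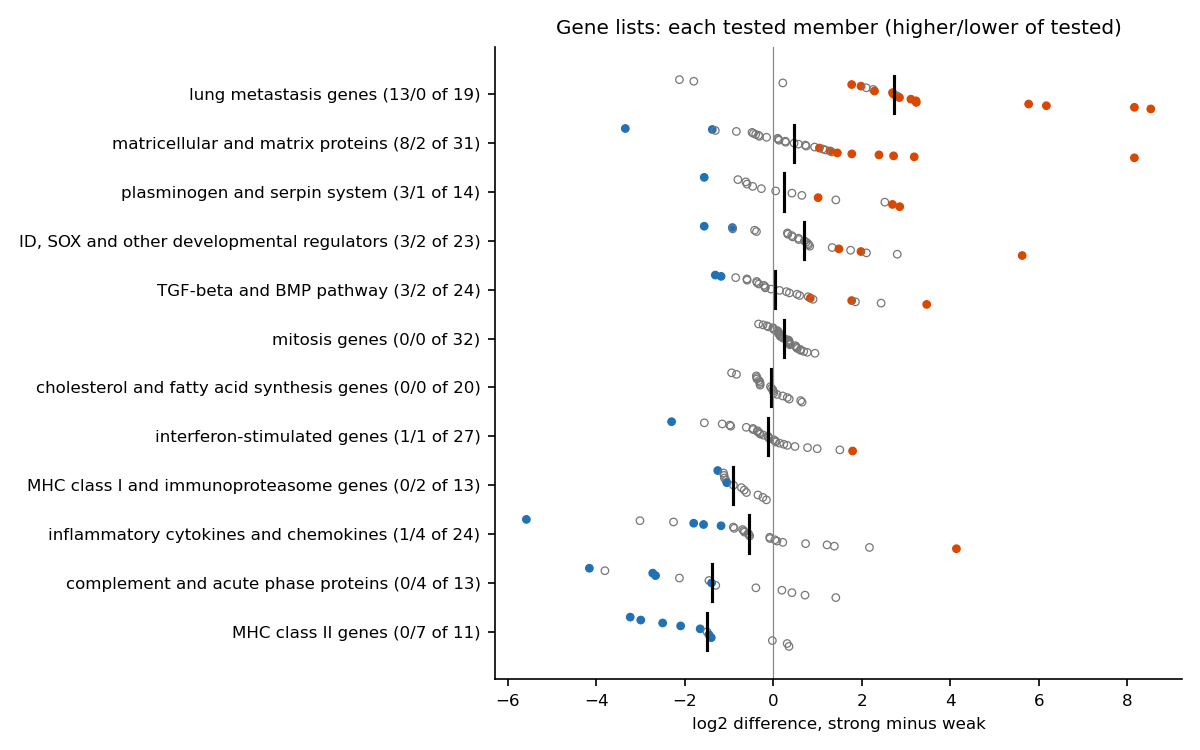
Log2 difference between strong and weak lines (x axis) of each tested member of 12 gene lists (rows, with the number higher/lower of tested); filled orange points passed as higher, filled blue as lower, open points did not pass, and black bars are list medians. The lung metastasis list sits to the right (median 2.72) and MHC class II to the left (-1.50), and the mitosis and cholesterol lists hold 0 filled points.

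Other genes among the 15 largest decreases were the hyaluronan-degrading protein CEMIP (490.9, 1689.9 and 2426 against 107.2, 85.7, 97.7 and 106.3, difference -3.74, SE 0.48, adjusted p = 0.00526), the polarity protein PARD6B (-4.43, SE 0.43, adjusted p = 0.00169, lower by at least 1.91-fold), the small membrane protein PDZK1IP1 (-3.77, SE 0.26, adjusted p = 0.000538) and the efflux transporter ABCC3 (-3.74, SE 0.47, adjusted p = 0.00494, lower by at least 4.19-fold). CEMIP was about equal in the 4 strong lines, and among the weak lines SCP21 was lowest. PNPLA4, a patatin-like lipase, REPS2 of the endocytic machinery, the F-box protein FBXO17, LRP3 of the LDL receptor family and the cystatin CST7 had differences of -3.66, -3.46, -3.41, -3.13 and -3.18 on the log2 scale. The strong lines lay at or below the 40th percentile for the first 4 of these, which were at least 3.14-fold, 2.94-fold, 1.83-fold and 2.38-fold lower. CST7 lost its call without 4173, 4175 or 4180 (adjusted p up to 0.058). The remaining large increases were SPANXB1 of a testis-expressed family (4.25, SE 1.0, adjusted p = 0.0473), the disulphide isomerase relative AGR2 (4.22, SE 0.78, adjusted p = 0.0203, higher by at least 1.5-fold), SUSD5 (4.08, SE 0.66, adjusted p = 0.0119, higher by at least 1.9-fold), SOBP (3.91, SE 0.91, adjusted p = 0.0464, higher by at least 3.89-fold), the non-coding RNA LINC01711 (3.68, SE 0.30, adjusted p = 0.000819, higher by at least 4.02-fold), the organic anion transporter SLC22A7 (3.45, SE 0.24, adjusted p = 0.000538, higher by at least 1.4-fold) and the phospholipase PLCB1 (3.41, SE 0.31, adjusted p = 0.00133, higher by at least 4.26-fold). SPANXB1 ranged from 672.0 to 5755 among strong lines and reached 380.5 in SCP26. Calls were lost for SPANXB1 without SCP21, SCP6, 4142, 4173, 4175 or 4180 (adjusted p = 0.0884 to 0.113), for AGR2 without 4142, 4173 or 4180 (adjusted p = 0.0549 to 0.0639) and for SOBP without SCP26, 4142, 4173, 4175 or 4180 (adjusted p = 0.0568 to 0.124). Another probe set of PLCB1 gave 0.47 (adjusted p = 0.388).

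In 4 lists of growth and metabolism no gene passed. Of 32 mitosis genes, 31 DNA replication genes, 20 cholesterol and fatty acid synthesis genes and 15 MYC and ribosome biogenesis genes, 0 passed in either direction in limma, with medians of 0.25, 0.20, -0.05 and 0.06. At an unadjusted p under 0.05 in limma, 9 mitosis genes were higher and 0 lower, 6 and 3 of the DNA replication genes, 1 and 1 of the cholesterol genes, and 0 of the MYC list. Over all genes 1828 of 8411 had such a p in either direction. Under quantile normalisation 3 mitosis genes were higher, and 2 were under the trimmed mean or in the fit of 14 arrays. Without SCP26, 3 DNA replication genes were lower. The counts that follow stand beside 5.08% of all genes. The hypoxia and glycolysis list had 1 higher of 28, the glycolytic enzyme ALDOC, and the amino acid and unfolded protein stress list 1 higher of 20. The latter was PHGDH, the first enzyme of serine synthesis, which went from 114.8, 153.2 and 97.9 to 578.1, 744.5, 526.6 and 421.6 (2.15, SE 0.30, adjusted p = 0.00763). Among immediate early and MAPK feedback genes 3 of 23 were higher, the receptor antagonist SPRY1 (1.43, SE 0.22, adjusted p = 0.0105), the factor KLF2 and the ERK phosphatase DUSP6. Of 21 genes in the YAP list 2 were higher and 1, ASAP1, was lower. The higher genes were the target CCN2 and WWTR1 (1.66, SE 0.20, adjusted p = 0.00423), which encodes the YAP paralogue TAZ. Calls were lost for ALDOC without 4142, 4173 or 4175 (adjusted p = 0.0564 to 0.0733), for KLF2 without 4173 (adjusted p = 0.0534), for DUSP6 without SCP21, 4173, 4175 or 4180 (adjusted p = 0.0518 to 0.0733) and for ASAP1 without SCP21, 4142, 4173, 4175 or 4180 (adjusted p = 0.0507 to 0.0733). In the TGF-beta and BMP pathway 3 of 24 were higher (SMAD6, LTBP1 and LTBP4) and 2 lower, the ligand BMP4 (-1.31, SE 0.28, adjusted p = 0.0324) and the transducer SMAD2 (-1.18, SE 0.22, adjusted p = 0.0223). BMP4 lost its call without SCP6, SCP26, 4142, 4173 or 4180 (adjusted p = 0.0559 to 0.0941), SMAD2 without 4142, 4173, 4175 or 4180 (adjusted p = 0.0639 to 0.0785) and LTBP4 without SCP21, SCP6, 4142, 4173, 4175 or 4180 (adjusted p = 0.0617 to 0.152). This list had 1 higher and 0 lower without 4173 or with no filter, 1 and 1 without 4175, 2 and 0 without 4142 or 4180, and 2 and 1 without SCP6. The YAP list had 1 and 0 without 4142, 4173 or 4175, and the immediate early list 1 higher without 4173. The mesenchymal list had 1 higher of 17, the cadherin CDH11 (1.90, SE 0.27, adjusted p = 0.00763), and the epithelial list 1 lower of 19, the claudin CLDN4 (-1.82, SE 0.25, adjusted p = 0.00732). Without SCP6 the mesenchymal list and the amino acid stress list had 2 higher each.

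Some markers of other cell types were higher in the strong lines. Over all genes tested, 4050 of 8411 had a positive difference. Of 12 leukocyte markers tested, 11 had a positive difference, with a median of 0.53 that was 0.03 without SCP6. Of these 2 were higher, the lysosomal protein LAPTM5 (994.4, 1299 and 1524 against 5955, 6273, 6187 and 5963, difference 2.22, SE 0.20, adjusted p = 0.00142) and the integrin chain ITGB2 (1.58, SE 0.36, adjusted p = 0.0437), which lost its call without SCP26, 4142, 4173, 4175 or 4180 (adjusted p = 0.0762 to 0.125). The summed signal of the 18 leukocyte markers on the array was 2084 to 3478 in the weak and 7817 to 8224 in the strong lines, and without LAPTM5 it was 784.3 to 1954 and 1630 to 2110. The defining leukocyte genes PTPRC, LYZ, TYROBP and CORO1A lay at or below the 40th percentile on all 7 arrays, PTPRC at 4.4 to 44.4, while MS4A1 exceeded it on 1 array and CD163 on 2. The leukocyte markers that passed were 16.7% of the 12, against 5.08% of all genes. With no filter 1 of 18 leukocyte markers was higher, at a median of 0.40. All 5 endothelial and stromal markers tested had a positive difference, and 3 were higher, COL1A1 (1.04, SE 0.22, adjusted p = 0.035), PECAM1 (1.26, SE 0.23, adjusted p = 0.0203) and ENG (1.69, SE 0.33, adjusted p = 0.0225). Of the 17 on the array, 10 lay at or below the 40th percentile on all 7 arrays and KDR and PLVAP exceeded it on 1 each. Other probe sets gave 4.07 (adjusted p = 0.000918) for COL1A1, 1.94 (adjusted p = 0.126) for PECAM1 and 0.62 (adjusted p = 0.549) for ENG. Calls were lost for COL1A1 without SCP21, SCP26, 4142, 4173, 4175 or 4180 (adjusted p = 0.0638 to 0.105), for PECAM1 without 4142, 4173, 4175 or 4180 (adjusted p = 0.0558 to 0.0714) and for ENG without SCP21, SCP26, 4173 or 4180 (adjusted p = 0.0543 to 0.0705). The count of 3 was 0 without 4173 or 4180 and 1 without SCP21, SCP26, 4142 or 4175. With no filter 0 of the 17 passed in limma and 4 had an unadjusted p under 0.05, at a median of 0.12 against 1.04 over the 5. The summed signal of the 17 was 933.7 to 1281 in the weak and 1546 to 2039 in the strong lines. Without COL1A1 it was 586.6 to 1015.6 in the weak and 969.7 to 1369.3 in the strong lines, which overlap. The endothelial genes VWF and CDH5 stayed at or below the 40th percentile everywhere. Of 3 lung epithelium markers tested 0 passed in limma, and 0 had an unadjusted p under 0.05, with summed signals of 427.9 to 957.8 and 660.8 to 970.5 over 11 markers. The part of other cells in these values was not tested, and more cells of a type cannot be told apart from more RNA per cell.

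The weak lines differed among themselves for more genes than the strong lines did, by counts at a fixed fold and with no test. Between SCP21 and SCP6 1483 genes (17.6%) differed by 2-fold or more, between SCP6 and SCP26 1632 (19.4%) and between SCP21 and SCP26 798 (9.49%). Pairs of strong lines differed for 216 (2.57%, 4173 and 4175) to 447 genes (5.31%, 4142 and 4173), and the other 4 pairs for 5.09%, 4.68%, 3.14% and 3.64%. The pair SCP21 and SCP26, which leaves SCP6 out, thus still exceeded every strong pair. In the order 4142, 4173, 4175 and 4180, the strong lines differed from SCP6 for 22.4%, 21.7%, 21.7% and 23% of genes. From SCP21 they differed for 12.4%, 12.7%, 13.4% and 10.8%, and from SCP26 for 13.9%, 12.6%, 13.5% and 9.64%. The shares against SCP21 and SCP26 ran from just above the 9.49% between those lines to 13.9%. Each line had 1 array, so the difference between lines and between arrays cannot be told apart.

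SCP6 stood apart from both other weak lines by 2-fold or more for 820 genes (9.75%), 243 above and 577 below. SCP26 did so for 328 (3.9%), 118 above and 210 below, and SCP21 for 284 (3.38%), 64 above and 220 below. Among strong lines 4142 led with 119 (1.41%), followed by 4173 and 4175 with 60 each (0.713%) and 4180 with 53 (0.63%). The excess of SCP6 lay mostly in dim genes. The genes were split by mean signal into 3 equal groups. SCP6 differed from SCP21 for 34.0% of the dimmest and 6.95% of the brightest genes, and from SCP26 for 33.6% and 10.1%. SCP21 differed from SCP26 for 14.6% and 6.03%. With a stricter filter SCP6 stood above both others for 158 genes and below for 45, so the direction turned. Scaled to a trimmed mean it was above for 86 and below for 801. Strong pairs differed in the brightest group for 0.107% to 2.32% of genes.

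Single genes, chosen for the widest gaps among weak lines, show which lines stood apart. The tryptophan-pathway enzyme KYNU had 2.6, 284.6 and 185.3 in the weak and 841.6, 673.8, 874.8 and 1189 in the strong lines, and the cytokine IL24 had 13.1, 942.5 and 1108 against 136.0, 5.6, 13.5 and 89.6. By its brightest probe set KYNU was thus lowest by far in SCP21, while IL24 was highest in SCP6 and SCP26. That probe set of KYNU gave 4.02 between the groups. Others gave smaller differences, 1.23 (adjusted p = 0.0334 in limma), which passed, and 2.27 (adjusted p = 0.0663), which did not. Upward, SCP21 led the weak lines for ZBED2 (106.9, 8.8 and 16.8) and SOX21 (117.1, 20.4 and 24.2). The stromelysin MMP3 was near 0 in SCP6 and near the array medians elsewhere, at 122.6, 2.0 and 131.6 against 140.6, 142.2, 156.1 and 135.3. The receptor subunit CHRNA9 was low in SCP6 (2.4) and in 4175 (15.2). Among weak lines SCP6 was highest for FOXRED2 (13.2, 265.9 and 12.7) and for PDK1, a kinase that inhibits pyruvate dehydrogenase (36, 255.6 and 30). SCP26 was highest for TRIM29 (167.4, 85.1 and 1500.3) and the monocyte co-receptor CD14 (39, 7.3 and 340.0), and lowest for the kinase MAPK8 (212.9, 174.7 and 27.2). Between the groups MAPK8 gave 0.74 by its brightest probe set and -0.07 (adjusted p = 0.933 in limma) by another. By the brightest probe set, none of these genes passed between the groups.

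Over the 427 genes that passed, the weak line nearest to the mean of the strong lines was SCP26 for 168 genes, SCP21 for 162 and SCP6 for 97. For the 258 lower genes it was SCP6 in 26 cases, SCP21 in 119 and SCP26 in 113. For the 169 higher genes SCP6 was nearest in 71, SCP26 in 55 and SCP21 in 43. The median SD of a gene on the log2 scale was 0.376 among weak lines and 0.227 among strong lines. Without SCP6 it was 0.255 among weak lines, and without 1 strong line it was 0.197 to 0.23 among strong lines.

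**Figure D4:**
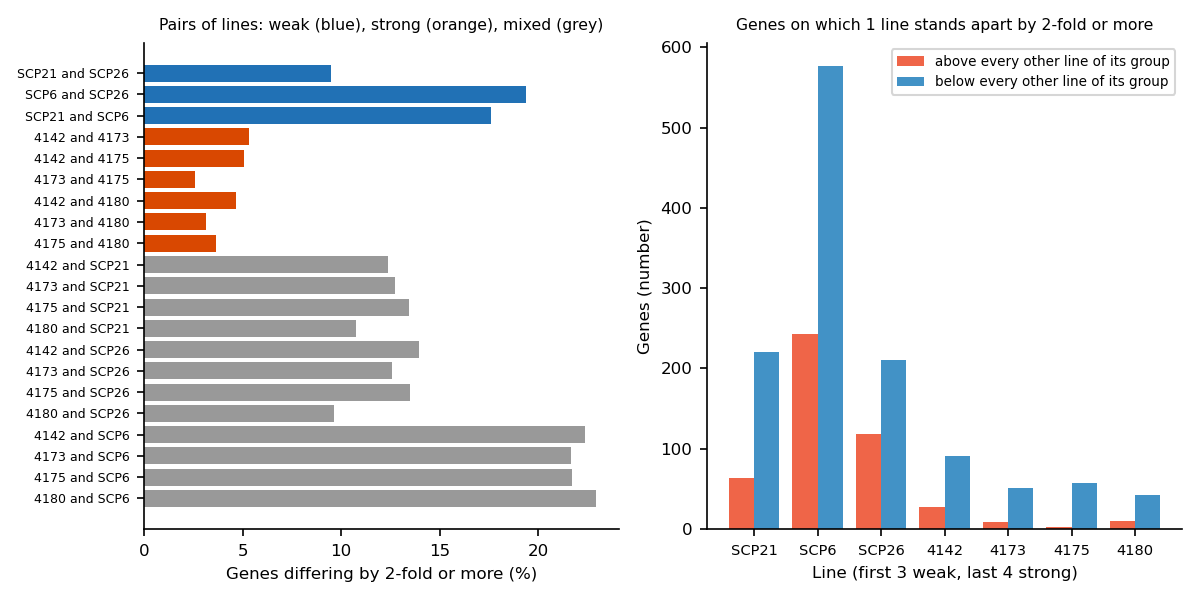
Left, percent of 8411 genes that differ by 2-fold or more (x axis) for each pair of lines, weak pairs in blue, strong pairs in orange and mixed pairs in grey. Right, number of genes on which a line lies 2-fold or more above (red) or below (blue) every other line of its group; SCP6 leads with 243 and 577.

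The same contrast was available in bone lines of the same origin, 4 strongly and 3 weakly bone-metastatic (1833, 2274, 2268 and 2269 against 2293, 2295 and 2296), which carry the same labels for culture. The difference between lung and bone contrasts passed for 1120 genes (13.3%), 447 higher (5.31%) and 673 lower (8%) in lung, where higher means more positive in the lung contrast. Quantile normalisation gave 751 higher and 704 lower, and leaving out SCP6 gave 552 and 525. Of the 427 genes called in lung, 294 also passed this test. The lung difference is a term of it, so this overlap is not separate evidence. Of the 169 called higher in lung, 10 were higher and 31 lower in bone, and of the 258 lower, 33 were lower and 53 higher in bone. Of all 8411 genes 632 (7.51%) were higher and 480 (5.71%) lower in the strong bone lines.

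SOX4, CSF3 and LINC01711 rose in the strong lung lines and fell in the strong bone lines, and WT1 did the reverse. SPARC had a bone difference of 0.31 that did not pass, and a difference between contrasts of 7.85 (SE 1.20, adjusted p = 0.00107). SOX4 had -1.74 in bone and a difference of 7.37 (SE 0.74, adjusted p = 8.11e-05). CSF3 fell in bone lines (-3.67), which gave 7.81 (SE 0.96, adjusted p = 0.000258), and so did LINC01711 (-3.43), with 7.11 (SE 0.74, adjusted p = 9.25e-05). MMP1 had 1.81 in bone without passing there, and 6.72 (SE 1.10, adjusted p = 0.00169) between contrasts. WT1 rose in bone lines (2.99), which gave -7.58 (SE 0.70, adjusted p = 5.04e-05). CEMIP, MATN2, PNPLA4, C4BPB and the surface glycoprotein MSLN also rose in bone and fell in lung, with bone differences of 2.34, 2.34, 2.19, 3.17 and 2.59. In lung MSLN was at least 1.58-fold lower, and its call was lost without SCP6, SCP26, 4173, 4175 or 4180 (adjusted p = 0.0581 to 0.0887). The receptor-type phosphatase family member PTPRN2 had the largest difference, 10.71 (SE 2.05, adjusted p = 0.00454), at 11.3, 5.1 and 9.0 in weak lung lines and 15.2, 1146, 1472 and 1272 in strong lung lines. The strong line 4142 sat with the weak lines here, and the lung contrast alone did not pass (5.66, SE 1.45, adjusted p = 0.0638).

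Some of the decreases were shared with bone. LCN2 had -5.38 there and a difference between contrasts of 1.23 (SE 0.49, adjusted p = 0.117). PDZK1IP1 had -3.76 in bone and -3.77 in lung, with -0.01 (SE 0.68, adjusted p = 0.996). HLA-DRB1 had -3.20, with 1.11 (SE 0.57, adjusted p = 0.222), and HLA-DPA1 -2.39, with -0.60 (SE 0.66, adjusted p = 0.59). A difference between contrasts that did not pass does not show that the contrasts were alike.

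**Figure D5:**
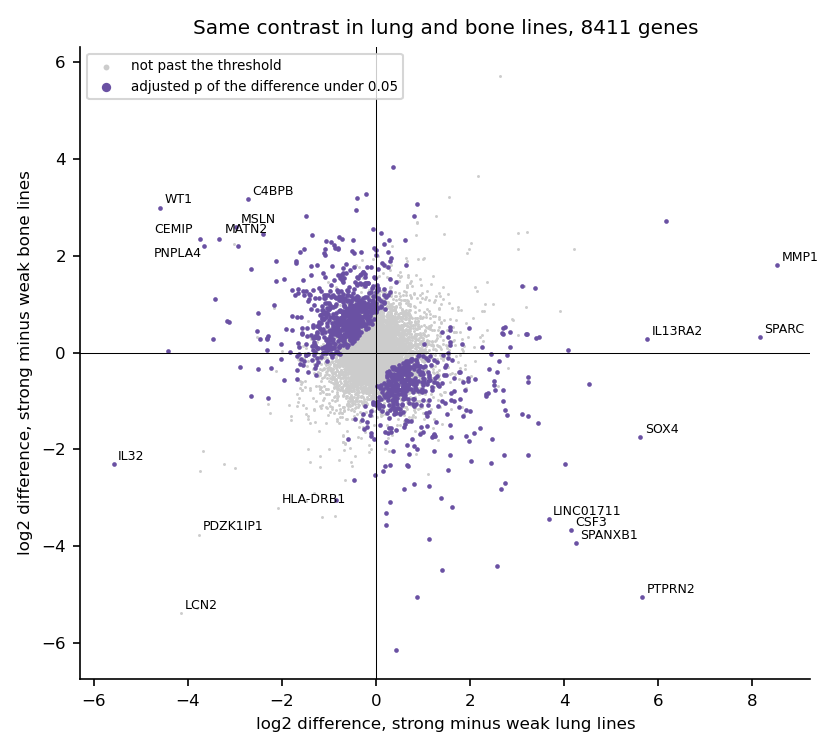
Log2 difference of strong minus weak lines in lung (x axis) against bone (y axis) for 8411 genes; purple points passed the test of the difference between the contrasts and grey points did not. SPARC lies at the right with a bone difference near 0, LCN2 at the lower left, and WT1 at the upper left.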

How the data were processed

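RNA from 19 lines, the parental MDA-MB-231 and its sublines, 1 array each, was hybridised as biotin-labelled cRNA, per the labels' protocols, and the 7 lung lines are described here. The authors deposited a linear ratio per probe set and array. Which software and normalisation made it is not given in the sources used here. Each ratio equals a signal in steps of 0.1 divided by an array factor and a probe set divisor. Whole steps were recovered for 22283 of 22283 probe sets on the lung arrays, and for 0.0987% after shuffling. The divisor was shared by the lung lines and the 4175 pair and did not equal their median, so it may rest on arrays not used here. It cancels in every difference given, and the bone lines have a divisor of their own.

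The log2 of the ratios was fitted with limma 3.58.1 (lmFit, eBayes) in R 4.3.3, with 5 residual degrees of freedom, and signals were recovered in Python 3.11.15. The adjusted p-values are Benjamini-Hochberg values over 8411 genes. The platform annotation gave 1 symbol for 19071 probe sets, several for 1043 and none for 2169, and only the first kind were named. A probe set was kept above its array's 40th percentile on at least 3 arrays (62.8% of 22283), and the brightest kept probe set stood for a gene. The lung and bone contrasts were compared in 1 fit of 14 arrays. Array data have no counting depth, and the number of arrays limits the precision.

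Genes were named by rule: the 15 largest differences each way among those that passed without overlap, each measured lung metastasis gene, up to 4 passing members with the largest difference of each other list, 4 genes each way that set each weak line apart, the 6 largest lung minus bone differences each way, and identity markers. Other list members were named after their values were seen. The comparison and the gene lists were chosen with earlier results of these data known. Alternatives were an offset, 3 other scalings, 2 other filters, 2 variance models, a minimum difference, a fit of 14 arrays, all kept probe sets, and leaving out each line in turn. The scripts were tested on simulated data. Promoters came from a RefSeq table of GRCh38.p14, with the first entry for each symbol.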

Additional observations from a re-analysis of the deposited data

Results flagged for a closer look

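The 48 genes were named for the largest lung differences, for the lung metastasis list or for the lung minus bone difference. Of these, 37 had a difference between the lung and bone contrasts that passed in the limma fit of 14 arrays. Of all 8411 genes 1120 (13.3%) passed it. The lung difference is a term of this contrast, and some genes were named for passing it. The count of 37 thus follows in part from the choice of genes. Values are the lung difference minus the bone difference on the log2 scale. Among secreted proteins and receptors these were 6.72 for MMP1, 7.85 for SPARC, 3.46 for ROBO1, 5.49 for IL13RA2, 7.81 for CSF3, 4.84 for TNC, 3.77 for CXCL1, 2.73 for EREG, 2.65 for VCAM1, 2.18 for LTBP1 and 4.04 for SUSD5. CXCL1 and VCAM1 did not pass in the lung contrast itself. Regulators gave 7.37 for SOX4, 3.80 for ID1, 3.16 for SMAD6, 2.05 for NR2F1 and -7.58 for WT1. Enzymes, transporters and other genes gave 3.73 for PTGS2, 4.38 for MAN1A1, 3.11 for PLCB1, 4.91 for SLC22A7, 2.32 for FSCN1, 8.18 for SPANXB1, 7.11 for LINC01711, 5.34 for ADIRF and 10.71 for PTPRN2.

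Below 0 were -3.27 for IL32, -4.46 for PARD6B, -6.08 for CEMIP, -5.85 for PNPLA4, -3.75 for REPS2, -4.52 for FBXO17, -5.68 for MATN2, -3.83 for CST7, -3.77 for LRP3, -2.27 for NEDD9, -5.89 for C4BPB and -5.56 for MSLN. NEDD9 did not pass in the lung contrast.

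Of 123 genes examined, 8 had a strong line apart from the other 3 by the gap to its neighbour over the range of the group, where chance alone sets about 1 in 20 apart. The measure takes no account of the size of the difference. The line 4175 was high for TNC (687.0) and low for ZBED2 (30.7), CHRNA9 (15.2) and CRYM (114.4). The line 4180 was low for CCN2 (3739.1, against 4036.6 to 4246.5 in the other strong lines) and HTR1B (47.4) and high for HLA-DRB1 (1208.1), and 4142 was low for PTPRN2 (15.2). TNC, CCN2 and HLA-DRB1 passed between the groups. The group of 3 weak lines was not examined in this way.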

How the results depend on the processing

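Where 427 genes passed, 173 did so with no filter on low values (80 higher and 93 lower), of which 155 were among the 427. A minimum log2 difference of 0.5 gave 87, all among the 427, and the fit of 14 arrays 876 (327 and 549), with 406 of the 427. An offset of 16, 3 other scalings, a stricter filter, 2 variance models and all kept probe sets gave 420 to 634, and leaving out 1 line gave 151 to 518. Under the other scalings and filters the 427 kept their direction wherever they were tested. Leaving out a line could not turn it, because the groups did not overlap. Of the 30 largest differences, 23 kept their call whichever line was left out and 21 under each other setting. The difference between lung and bone contrasts passed for 778 to 1457 genes. Weak pairs differed on average by 2-fold or more for 15.5% of genes, 9.84% with the stricter filter and 24.7% with none, and strong pairs for 4.07%, 1.70% and 11.5%. Among the named genes, signs turned only for differences that did not pass. CD44 was at 0.034 under trimmed mean scaling and from -0.17 to 0.15 without 1 line. Without 1 line CXCL1 ran from -0.59 to 0.96, ZEB1 from -0.088 to 0.27, EGFR from -0.37 to 0.012, MSN from -0.31 to 0.055 and the lung minus bone difference of PDZK1IP1 from -0.47 to 0.48. The causes were not tested. Trimmed mean scaling of the spread and the minimum difference for single genes were chosen after seeing the data. Signals near the floor of an array carry the widest spread. No paired analysis was made, because nothing in the labels matches a strong line to a weak line.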

Other observations

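A pair of arrays came from sublines of the strong line 4175 labelled by their ploidy as modal and hyper, and these enter no group of the comparison. Over the 427 genes that passed, the modal subline lay nearer the mean of the strong than of the weak lines for 311 (72.8%) and the hyper subline for 272 (63.7%), against 52.8% and 51.8% of all genes. The strong mean includes 4175 itself. SPARC had signals of 2177 in the modal and 2289 in the hyper subline, below all 4 strong lines and above all 3 weak lines. The collagenase MMP1 had 5176 and 581.8, the adhesion molecule VCAM1 470.3 and 131, and the chemokine CXCL1 1007 and 403.5. IL32 (5.7 and 5.2) and LCN2 (38.1 and 41) were low in both. The polarity gene PARD6B went the other way, with 151.6 and 122 in these sublines against 7.1 in 4175 and 105.2, 339 and 149.4 in the weak lines. Each subline had 1 array, so these values have no replicate check.

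Counts in further gene lists stand beside the 5.08% of all genes that passed. Of 7 tested bone metastasis genes 2 were higher, MMP1 and CCN2, and 0 were lower, in a list that earlier work drew from sublines of the same parental line, and 1 was higher without 4142, 4173 or 4175. In the list of actin and motility genes 2 of 32 were higher, FSCN1 and the actin-binding drebrin DBN1 (1.52, SE 0.25, adjusted p = 0.0137 in limma), which lost its call without 4173 (adjusted p = 0.0536). Of 18 NRF2 and detoxification genes the aldehyde dehydrogenase ALDH3A1 was higher (2.37, SE 0.50, adjusted p = 0.0339, at least 1.85-fold higher), and the transporter ABCC3 and the malic enzyme ME1 (-1.12, SE 0.21, adjusted p = 0.0212) were lower. ALDH3A1 lost its call without SCP21, SCP6, SCP26, 4173, 4175 or 4180 (adjusted p = 0.0539 to 0.1) and ME1 without 4173, 4175 or 4180 (adjusted p = 0.0686 to 0.0802). The neural cell adhesion protein L1CAM (-1.43, SE 0.23, adjusted p = 0.0124) and ICAM1 were the 2 of 17 adhesion molecules that fell, and L1CAM alone was left without SCP6, SCP26, 4173, 4175 or 4180. The DNA repair factor XPC (-1.03, SE 0.19, adjusted p = 0.0203) was the 1 of 13 p53 targets that fell, and its call was lost without 4142, 4173, 4175 or 4180 (adjusted p = 0.0549 to 0.0642).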
